A study of Mus musculus with 32 samples.

Results

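The comparison described here is the brain of sighted C3H mice against the brain of C3H mice with retinal degeneration. It rests on the 12 of 32 arrays of the series whose titles name sighted brain. The other arrays hold eye, with 12, and heart, with 8. Each array carried complementary DNA probes and was hybridised with 2 RNAs in different dyes. One was total RNA of a sighted brain, which the labels call C3H sighted, and the series text names 6 males of the C3H seh line. The other was a single pool of brain RNA from 6 males labelled C3H.pde6b-, and the heart pool came from the same mice. The labels give no age, no Pde6b genotype for the sighted animals and no statement of which arrays share an animal. Arrays were read in consecutive pairs of opposite dye, 1 with 2 up to 11 with 12, and the mean of a pair is called a replicate, which gave 6 replicates. The p-values therefore measure the spread between these replicates, which may be partly technical, and they leave out the spread between control animals.

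The C3H strain carries an inherited loss of Pde6b, which encodes the beta subunit of the rod phosphodiesterase. Without it rods die early in life, cones follow, and the retina stops sending image signals, whereas melanopsin ganglion cells can still report light to the brain. Light reaches the suprachiasmatic nucleus, the daily clock of the hypothalamus, and the hypothalamus steers the pituitary gland, which hangs beneath the brain. The pituitary makes growth hormone in somatotrophs, prolactin in lactotrophs, the peptide precursor pro-opiomelanocortin in corticotrophs and melanotrophs, and the shared alpha subunit of the glycoprotein hormones in thyrotrophs and gonadotrophs.

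Each value is the log2 of the sighted over the control signal, so that -1 stands for a level in sighted brain that is 50% of the control level. The order of the dyes in the deposited ratio is not stated, and the direction used here is called likely. Its basis is the eye arrays, where the rod arrestin gene Sag had 5.35 ± 0.14 (SD, n = 6) in the sighted direction. Brain array 3 has the dye Cy5 in its labels for both RNAs, and its sighted RNA was taken to carry Cy5. The source label of array 5 leaves out the organ. After values above 15 were set missing, the arrays held between 19525 and 20543 values of 20794 probes. Arrays 9 to 12 missed 4.09% to 6.1% of values and arrays 1 to 8 missed 1.21% to 2.91%. The files hold ratios without intensities, so the labelled tissue could not be checked against the level of its markers.

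The brain comparison showed little movement outside the pituitary hormones. The growth hormone gene Gh fell in sighted brain, and it was the only feature past the threshold. Of 16112 genes and unnamed probes entered into limma, 1 (0.00621%) was past an adjusted p of 0.05 (Benjamini-Hochberg). At an unadjusted p under 0.05 there were 315 higher (1.96%) and 342 lower (2.12%). The median log2 ratio over all features was -0.00354 and the central 90% lay between -0.204 and 0.192. Only 5 features had a mean of at least 1 in either direction: Prl, Gh, Cntfr, Tmeff2 and an unnamed probe. Cntfr, a receptor gene for ciliary neurotrophic factor, had 1.12 ± 1.21 (SD, n = 5), and Tmeff2 had -1.07 ± 1.41 (SD, n = 5), so that in both the spread between replicates was as large as the mean.

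**Figure D1:**
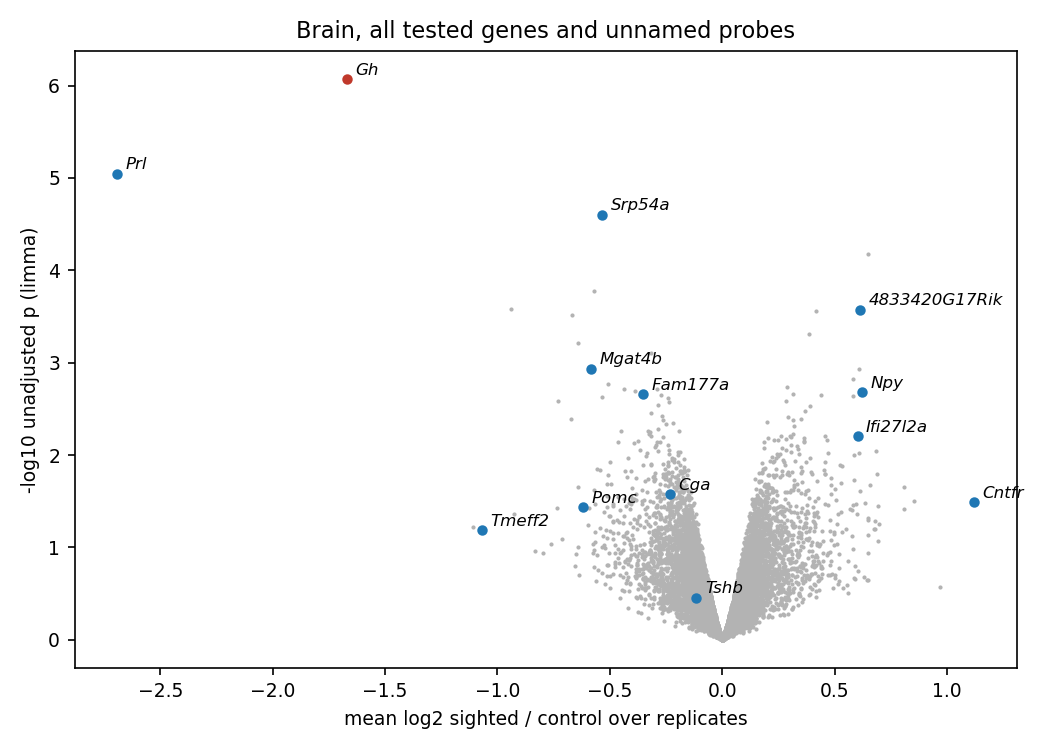
Each point is a gene or unnamed probe in brain, with the mean log2 ratio of sighted over control RNA on the horizontal axis and -log10 of the unadjusted limma p on the vertical axis. Gh, the only call (red), at -1.67, and Prl, at -2.69, lie far to the left of all other named points (blue).

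Gh was lower in sighted brain on every array. Over arrays 1 to 12 its log2 ratio was -1.31, -1.47, -1.16, -1.75, -1.64, -1.37, -1.50, -1.53, -2.15, -2.40, -2.45 and -1.30. Values of arrays 9 to 11 were the lowest and the remaining 9 lay close together, with no array near 0. The mean was -1.67 ± 0.34 (SD, n = 6), with a 95% interval of -1.95 to -1.39 and a limma adjusted p of 0.0136. The control level was thus 3.18 times the sighted level. With sighted RNA in Cy5 the mean was -1.70 and in Cy3 it was -1.64. In replicates 1 to 4 alone, a choice made after seeing the data, it was -1.47, with a limma adjusted p of 0.00814. Without replicate 5 the value was -1.55, with a limma adjusted p of 0.00623. Without replicate 1, 2, 3, 4 or 6 the value stayed between -1.72 and -1.63, and the limma adjusted p was 0.0774, 0.125, 0.053, 0.122 and 0.12. Array 3 decides the call as well: read with sighted RNA in Cy3, Gh had -1.47 with a limma adjusted p of 0.848. In whole organ RNA, fewer cells of a type and less RNA per cell cannot be told apart.

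Prl, the prolactin gene, had the largest mean ratio of all features tested and did not pass. Over arrays 1 to 12 its log2 ratio was -2.46, -2.90, -2.37, -2.10, -1.20, -1.61, -2.20, -3.78, -2.72, -3.38, -3.66 and -3.89. All 12 arrays were below 0, replicate 3 was nearest to 0 and replicate 6 was farthest. The mean was -2.69 ± 0.81 (SD, n = 6), with a 95% interval of -3.31 to -2.07, and the limma adjusted p was 0.0725. The control level was 6.44 times the sighted level. Without replicate 3 the mean was -2.95 and the limma adjusted p was 0.0336. Without replicate 1, 2, 4, 5 or 6 the mean stayed between -2.78 and -2.47. The limma adjusted p in those fits was 0.3, 0.462, 0.471, 0.268 and 0.151. With array 3 read as sighted RNA in Cy3, Prl had -2.29 with a limma adjusted p of 0.968.

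**Figure D2:**
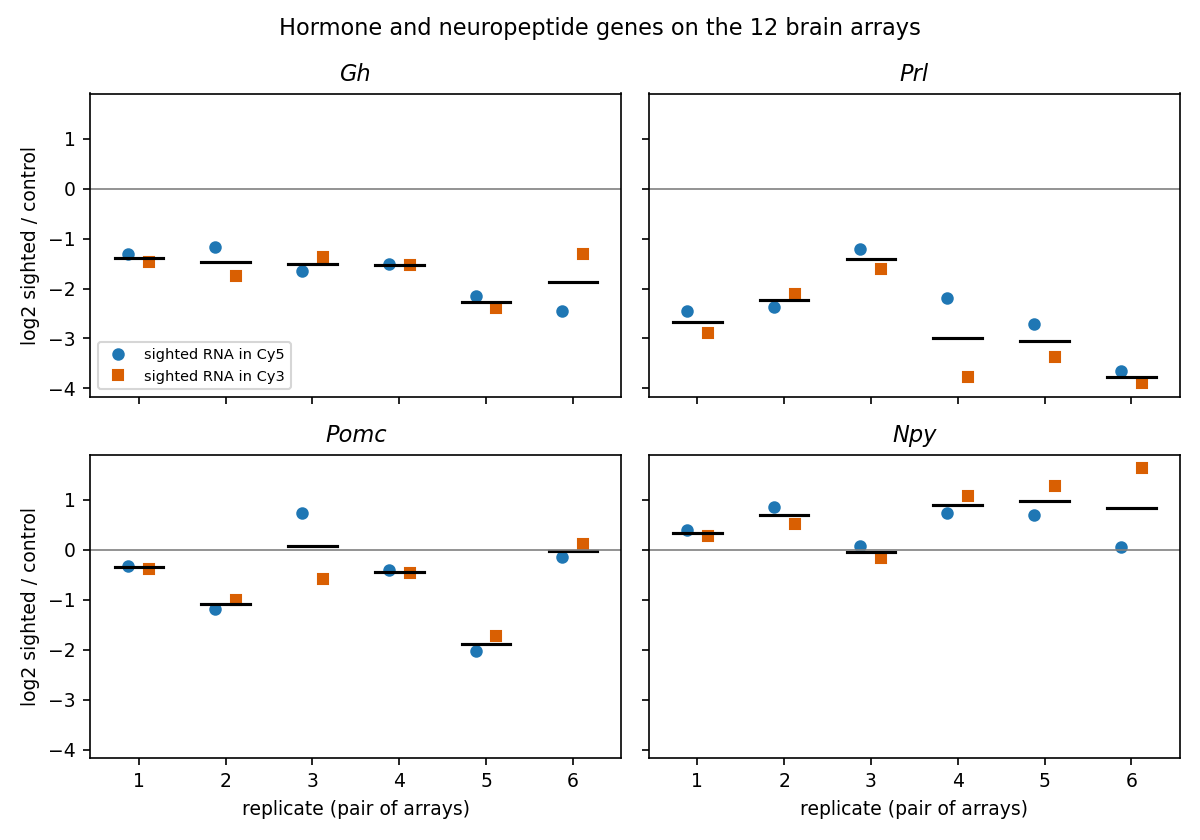
Log2 ratios of sighted over control RNA for Gh, Prl, Pomc and Npy in brain, by replicate, with circles for sighted RNA in Cy5, squares for sighted RNA in Cy3 and bars for the mean of the pair. All 12 points of Gh and of Prl lie below 0, while Pomc ranges from -2.03 to 0.73 and Npy from -0.16 to 1.63.

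The promoter window of Prl is shown because Prl and Gh share a well-known activator, the pituitary factor Pit-1 (POU1F1). RefSeq's window on GRCm38.p6 spans chr13:27057320-27057619 on the plus strand, from 250 bases before the start of the gene to 50 after it. No window of Gh was available, so its promoter was not searched. Pou1f1 was not among the genes tested, and the part of Pit-1 in the ratios was not tested. Capitals mark matches to the letters TATNCAT, a Pit-1-type motif, on either strand.
Prl: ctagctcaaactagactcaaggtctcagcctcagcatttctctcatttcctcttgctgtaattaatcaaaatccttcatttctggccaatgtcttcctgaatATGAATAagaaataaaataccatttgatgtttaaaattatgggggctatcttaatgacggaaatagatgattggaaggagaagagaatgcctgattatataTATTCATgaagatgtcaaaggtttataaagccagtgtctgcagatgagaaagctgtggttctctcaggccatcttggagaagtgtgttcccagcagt
The window held 2 matches, which do not overlap each other, one as written, beginning 47 bases before the start, and one on the other strand, beginning 148 bases before it. Of 32851 promoter windows of this length, 8.84% held at least 1 match. A match is a description of the letters and not a site of binding in these animals.

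The other pituitary hormone genes had smaller ratios, and none of them passed. All 5 hormone genes tested, of 7 listed, had a mean below 0, and their median was -0.618, beside -0.00354 over all features. Of the 5, only Gh passed. At an unadjusted limma p under 0.05, 4 were lower, beside 2.12% of all features. In every measured replicate 3 were lower, a state that 1.75% of all features shared. Gh and Prl are counted in these numbers, and the list was written with earlier results of these data known. Pomc, whose product is also made by neurons of the arcuate nucleus, had replicate values of -0.35, -1.09, 0.072, -0.44, -1.88 and -0.017. Its replicates 3 and 6 were near 0 and replicate 5 was far below the others, and the mean was -0.62 ± 0.74 (SD, n = 6). Cga, which encodes the shared alpha subunit, had -0.48, -0.033, -0.34, -0.18 and -0.13 in replicates 1, 2, 3, 5 and 6, with no value in replicate 4. All of them were below 0, with a mean of -0.23 ± 0.18 (SD, n = 5). Tshb, the beta subunit gene of thyrotropin, had -0.12 ± 0.29 (SD, n = 5) and its mean turned to 0.0051 without replicate 4.

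Genes that pituitary cells express beside their hormones had ratios near 0. Of 11 tested, 4 had a mean above 0 and 7 below, 0 passed, and the median was -0.0234. The list holds granule proteins such as Chga, at -0.055 ± 0.12 (SD, n = 6), which brain neurons make as well. The lowest was Nnat, a neuronatin gene active in pituitary and brain, at -0.37 ± 0.29 (SD, n = 6), lower in 5 of 6 replicates, with an unadjusted limma p of 0.00886 and an adjusted p of 0.959. Drd2, the dopamine receptor gene through which dopamine restrains prolactin cells, had -0.023 ± 0.081 (SD, n = 6). How much pituitary tissue each brain sample held is not recorded in the labels, and its part in the hormone ratios was not tested.

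Among hypothalamic peptide genes, Npy had the largest ratio, and none passed. Of 11 tested, 7 had a mean above 0 and 4 below, with a median of 0.0198. Npy, which encodes neuropeptide Y of the arcuate nucleus and of cortical interneurons, had replicate values of 0.33, 0.69, -0.041, 0.91, 0.99 and 0.84. Only replicate 3 was not above 0, and the mean was 0.62 ± 0.40 (SD, n = 6), with a limma adjusted p of 0.959. Trh, the thyrotropin-releasing hormone gene, had -0.23 ± 0.40, and Sst, which encodes somatostatin, the peptide that restrains growth hormone release, had 0.11 ± 0.18 (SD, n = 6 each). The dopamine list, which supplies the main brake on prolactin, had 9 members tested, 0 past the threshold and a median of 0.0343. Its members with the smallest p were Slc18a2, the vesicular monoamine transporter gene, at 0.15 ± 0.24, and Nr4a2, a transcription factor gene of dopamine neurons, at -0.097 ± 0.14 (SD, n = 6 each). Slc18a2 had -0.024 with sighted RNA in Cy5 alone and Nr4a2 had 0.058 in Cy3 alone. Of 12 genes of growth hormone and prolactin receptor signalling, 0 passed and the median was -0.0609. Igfals, whose product binds insulin-like growth factors in blood, was above 0 in 6 of 6 replicates, at 0.35 ± 0.30 (SD, n = 6), with an unadjusted limma p of 0.0134, but its sign turned with the dye, at -0.18 with sighted RNA in Cy5 and 0.87 in Cy3.

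**Figure D3:**
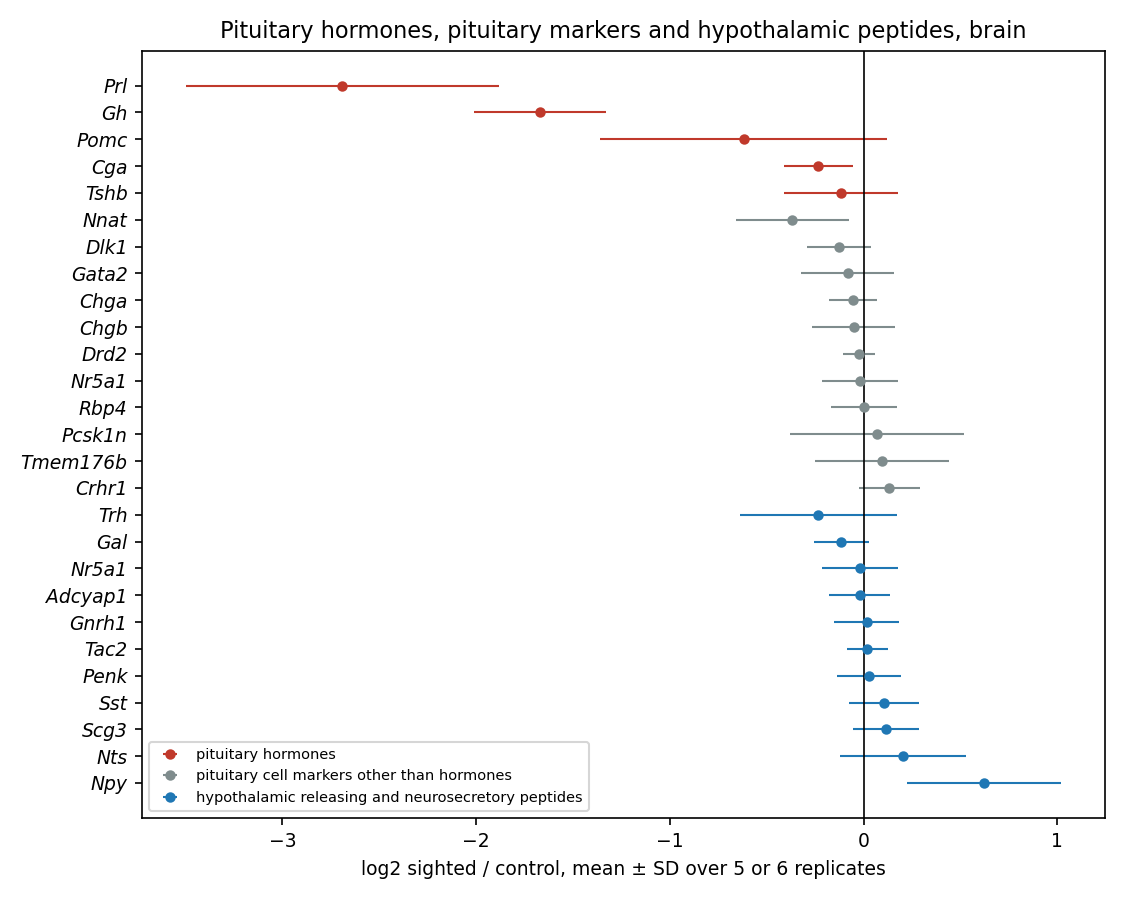
Mean log2 ratio of sighted over control RNA in brain with its SD over 5 or 6 replicates for the tested pituitary hormone genes (red), other pituitary markers (grey) and hypothalamic peptide genes (blue). The hormone genes run from -2.69 for Prl to -0.12 for Tshb, whereas the other markers lie between -0.37 and 0.13.

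No relation between Gh, Prl, Pomc and Npy over the replicates passed after adjustment. Over the 6 replicates, Prl and Npy had Pearson's r = -0.796 with an exact permutation p of 0.0458, and 0.275 after adjustment over the 6 relations computed. Spearman's rho was -0.771 with an exact permutation p of 0.103, 0.204 after adjustment. Without the 2 replicates farthest from the median of Prl, r was -0.507. Gh and Prl had r = 0.513 with an exact permutation p of 0.307, 0.368 after adjustment, and rho = 0.714 with an exact permutation p of 0.136, 0.204 after adjustment, and r was -0.185 without the 2 replicates farthest from the median of Gh. The other 4 relations had r between -0.592 and 0.605. Replicates share 1 control pool, and whether they came from separate animals is not stated.

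For Gh, Prl, Pomc and Npy the ratio differed between brain and eye. These genes were named with their brain values known, and the same values enter the difference. A limma fit of both organs called 2724 of 15499 features (17.6%) as different in brain and eye. Gh had -0.14 ± 0.24 (SD, n = 6) in eye, and its brain minus eye difference was -1.53, with a limma adjusted p of 1.56e-05. Prl had -0.16 ± 0.82 (SD, n = 5) in eye, and its difference was -2.52, with a limma adjusted p of 0.00118. On single eye arrays Prl ran from -2.17 to 1.32, and in heart it had values on only 2 arrays, -4.18 and 1.86. Without intensities, whether Gh and Prl stood above background in eye or heart was not tested, so their ratios there may carry little information. Npy was lower in sighted eyes, at -0.71 ± 0.30 (SD, n = 6), and higher in brain, with a difference of 1.33 and a limma adjusted p of 0.000202. Pomc had 0.43 ± 0.14 (SD, n = 5) in eye and a difference of -1.05, with a limma adjusted p of 0.0275. Without replicate 1 or replicate 2 of both organs that p was 0.0711 and 0.0621. Against heart 0 of 12688 features passed in limma, with 1200 (9.46%) at an unadjusted p under 0.05. Gh had 0.22 ± 0.67 (SD, n = 3) in heart, and its brain minus heart difference of -1.89 had a limma adjusted p of 0.485. The control mice of brain and heart were the same animals, and the fit takes no account of it.

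Few features had a single sign over all 12 arrays, both dyes included. Among 14962 features with 12 values, 5 (0.0334%) were below 0 on every array and 1 (0.00668%) was above 0 on every array. The 5 were Gh, Prl, Srp54a, Fam177a and an unnamed probe, and the 1 was an unnamed probe. Srp54a encodes a subunit of the signal recognition particle, which brings ribosomes making secreted proteins to the endoplasmic reticulum. Over arrays 1 to 12 its log2 ratio was -0.62, -0.45, -0.70, -0.22, -0.49, -0.46, -0.48, -0.32, -0.55, -0.65, -0.81 and -0.64. The values lay in a narrow band with no array near 0, and the mean was -0.53 ± 0.12 (SD, n = 6), with a 95% interval of -0.67 to -0.39 and a limma adjusted p of 0.134. Fam177a, a gene with no role given here, had -0.37, -0.11, -0.41, -0.22, -0.68 and -0.33 in the 6 replicates, all below 0. Its mean was -0.35 ± 0.19 (SD, n = 6), with a limma adjusted p of 0.959.

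Srp54a and Fam177a were singled out after their values were seen, and they are neighbours. In the gene order of RefSeq for GRCm38.p6 they lie side by side on chromosome 12, in a block of 7 genes in which copies of both recur: Srp54a, Fam177a, Gm2436, Srp54b, Fam177a2, Gm2446 and Srp54c. Of these, 2 were named on the array. Signal from copies with near-identical transcripts could not be assigned to 1 of them, so both values are uncertain as to the copy. How alike the transcripts are was not tested. The starts of the outermost Srp54 copies are shown, from 250 bases before the start of the gene to 50 after it. The windows are RefSeq's on GRCm38.p6, chr12:55080246-55080545 for Srp54a and chr12:55230127-55230426 for Srp54c, both on the plus strand, and capitals mark the longest run that they share.
Srp54a: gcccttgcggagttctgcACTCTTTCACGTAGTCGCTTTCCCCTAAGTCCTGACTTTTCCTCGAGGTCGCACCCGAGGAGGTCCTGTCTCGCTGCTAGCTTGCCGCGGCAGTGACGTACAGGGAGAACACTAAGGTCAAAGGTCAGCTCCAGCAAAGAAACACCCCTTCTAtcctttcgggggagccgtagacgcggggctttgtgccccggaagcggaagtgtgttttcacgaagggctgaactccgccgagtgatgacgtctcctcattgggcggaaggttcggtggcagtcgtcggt
Srp54c: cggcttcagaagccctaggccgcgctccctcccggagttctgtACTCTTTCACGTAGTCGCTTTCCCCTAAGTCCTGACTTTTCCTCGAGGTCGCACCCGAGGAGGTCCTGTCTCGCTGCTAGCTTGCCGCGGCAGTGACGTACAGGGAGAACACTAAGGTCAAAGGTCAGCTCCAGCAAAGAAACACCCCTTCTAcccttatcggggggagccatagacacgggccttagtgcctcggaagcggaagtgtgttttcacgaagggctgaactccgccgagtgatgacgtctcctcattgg
The shared run is 153 bases long, and a local alignment of the windows had 263 identical positions in 274 columns (96.0%).

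Measured genes on both sides of the block had ratios near 0 in brain. The 5 measured genes on each side of it had brain log2 ratios between -0.075 and 0.17. Directly beside the block, 2700097O09Rik had 0.088 ± 0.46 and Ppp2r3c had -0.015 ± 0.16 (SD, n = 6 each). Both Fam177a probes had a negative mean in brain, at -0.44 ± 0.30 and -0.27 ± 0.16 (SD, n = 6 each). Fam177a was lower in sighted eye too, at -0.64 ± 0.21 (SD, n = 6) with a limma adjusted p of 0.000982, and had -0.53 ± 0.60 (SD, n = 3) in heart. Srp54a was at 0.11 ± 0.092 (SD, n = 6) in eye, and its brain minus eye difference was -0.642, with a limma adjusted p of 7.34e-05. In heart it had -0.067 ± 0.15 (SD, n = 4).

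**Figure D4:**
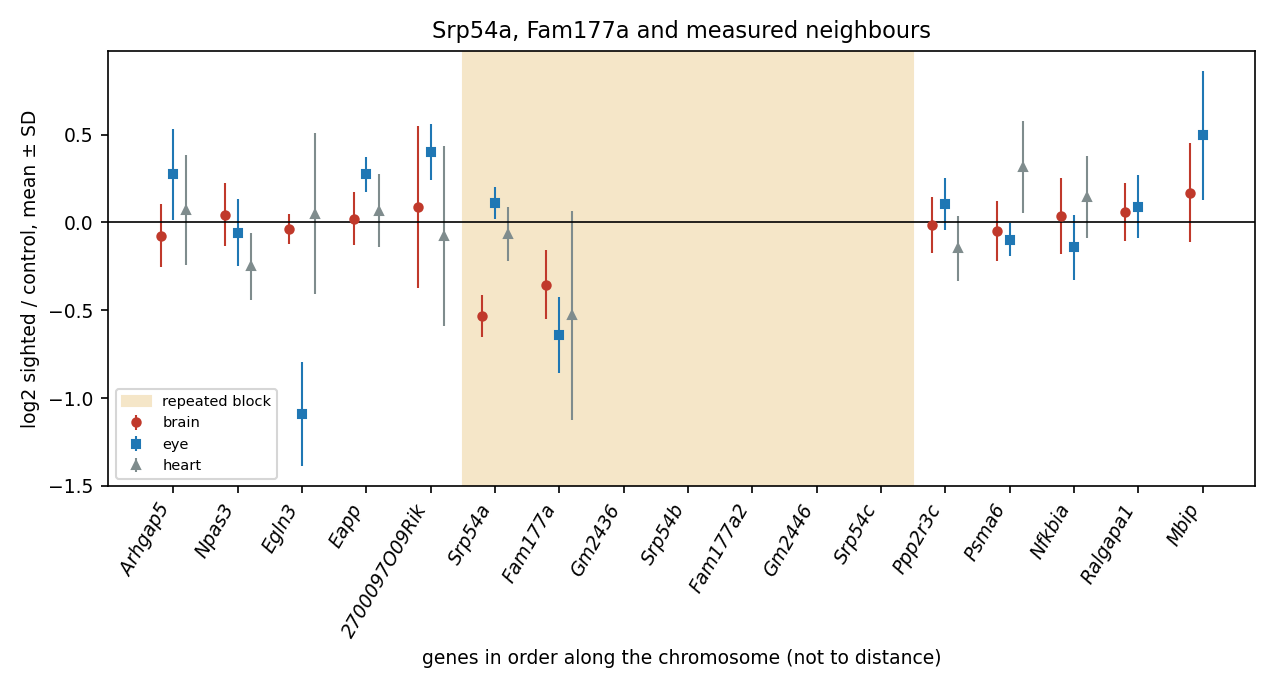
Mean log2 ratio of sighted over control RNA with SD over replicates in brain (circles), eye (squares) and heart (triangles) for genes in chromosomal order around Srp54a, with the repeated block shaded and its 5 unmeasured genes left without points. In brain, Srp54a at -0.53 and Fam177a at -0.35 lie below the 10 measured neighbours, which range from -0.075 to 0.17.

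Other features with a low p had small ratios and did not pass. Among the 25 smallest p-values, 12 belonged to probes without a gene symbol and 13 to features with one. Over all 16112 features tested, 8594 had a symbol. In all, 240 features (1.49%) were above 0 and 282 (1.75%) below 0 in every measured replicate. Named genes with a value above 0 in all 6 replicates were ranked by p, and the first 12 had log2 ratios between 0.199 and 0.612. The first was 4833420G17Rik, at 0.11, 0.90, 0.63, 0.64, 0.68 and 0.71 in the replicates. Replicate 1 was well below the other 5, and the mean was 0.61 ± 0.26 (SD, n = 6) with a limma adjusted p of 0.542. It had 1.88 ± 0.18 (SD, n = 6) in eye, with a brain minus eye difference of -1.26 and a limma adjusted p of 1.26e-05. Ifi27l2a, an interferon-inducible gene, had 0.60 ± 0.48, and Lbp, which encodes the lipopolysaccharide-binding protein, had 0.46 ± 0.35 (SD, n = 6 each). Evc, a gene of the primary cilium, had a narrow spread between replicates, at 0.20 ± 0.050 (SD, n = 6). By dye, Evc had 0.030 with sighted RNA in Cy5 and 0.367 in Cy3. Gatb, of the mitochondrial amidotransferase, had 0.44, Tspan4, a tetraspanin gene, 0.37, Pdgfb, a platelet-derived growth factor gene, 0.36 and Pgm2l1, which encodes glucose-1,6-bisphosphate synthase, 0.31. The rest were Rhd at 0.30, Bend6 at 0.29, Synpo2l at 0.26 and Ptpre, a tyrosine phosphatase gene, at 0.20. Tspan4 had -0.022 on the arrays with sighted RNA in Cy3 alone. Genes with a replicate missing or with mixed signs were not ranked. Among them Atoh8, a transcription factor gene named after its value was seen, had 0.39 ± 0.082 (SD, n = 5) with an unadjusted limma p of 0.000492 and an adjusted p of 0.793. Its mean was 0.025 with sighted RNA in Cy5 and 0.78 in Cy3. A further gene with 5 replicates on the higher side, Adam12, and 2 on the lower side, Gsap and Etv6, also had a p within the range of the ranked genes.

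The first 12 genes below 0 in all 6 replicates, ranked the same way, include Gh, Prl, Srp54a and Fam177a. Mgat4b, which encodes an enzyme that adds branches to N-glycans, had -0.58 ± 0.33, and Ifi205, an interferon-inducible gene, had -0.51 ± 0.30 (SD, n = 6 each). Ifi205 had 0.083 with sighted RNA in Cy5 alone and -1.10 in Cy3 alone, and Mmaa, a gene of cobalamin metabolism with a mean of -0.24, had 0.39 and -0.87. Hspa5, the main chaperone of the endoplasmic reticulum, had -0.29 ± 0.15, and Gabrb1, a GABA receptor subunit gene, had -0.27 ± 0.14 (SD, n = 6 each). The others were Ntn4, a netrin gene, at -0.44, Sbk1, a kinase gene, at -0.27 and Zfp428, a zinc finger gene, at -0.24. All 12 were below 0 in 6 of 6 replicates, and only Gh passed.

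Gene groups tied to light and the daily clock had medians near 0. Of 16 clock genes tested, 0 passed, 4 had a mean above 0 and 12 below, and the median was -0.0209. Per2 and Per1, which encode the period proteins of the clock, had -0.089 ± 0.16 and -0.073 ± 0.18 (SD, n = 6 each). In the replicates Per1 ran from -0.416 in replicate 3 to 0.089. Of the suprachiasmatic and pineal list, 2 of 16 genes were tested. Tph1, whose enzyme starts serotonin and melatonin synthesis in the pineal gland, had -0.17 ± 0.27, and Sag, which the pineal shares with rods, had 0.090 ± 0.13 (SD, n = 6 each), with -0.018 for Sag with sighted RNA in Cy5. Of 12 rod genes tested in brain, 0 passed and the median was 0.00758, with Reep6 lowest in p at -0.34 ± 0.36 (SD, n = 5), from 0.15 with sighted RNA in Cy5 and -0.72 in Cy3. The 4 visual cycle genes had a median of 0.0881, with Rlbp1, for a retinoid-binding protein, at 0.27 ± 0.40 (SD, n = 6) and Rdh5, a retinol dehydrogenase gene, at 0.16 ± 0.34 (SD, n = 5). Of 16 immediate early genes, which follow recent cell activity, 0 passed, 10 had a mean below 0 and the median was -0.0691. Nr4a1, one of them, had -0.27 ± 0.23 (SD, n = 6), lower in 5 of 6 replicates.

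Most chaperone genes had a mean slightly below 0, and none passed. Of 24 tested, 19 had a mean below 0 against 8306 of 16112 features, and the median was -0.0707. Hspa5 and Hsph1, at -0.15 ± 0.087 (SD, n = 6), were below 0 in 6 of 6 replicates. Of 13 astrocyte genes, 10 had a mean below 0 and the median was -0.0771, with S100b at -0.18 ± 0.15 and Apoe, the main lipid carrier of astrocytes, at -0.14 ± 0.086 (SD, n = 6 each). S100b had 0.097 with sighted RNA in Cy5 and -0.45 in Cy3. Of 20 genes of glycosylation and the secretory path, 0 passed and the median was -0.019. Of 9 interferon response genes, 0 passed and the median was -0.0289. The lists of brain regions had medians of -0.0186 for cortex and hippocampus, 0.0258 for striatum, -0.00867 for thalamus and midbrain, -0.0885 for cerebellum and -0.0608 for olfactory bulb and progenitors. Pax6, a member of the last pair of lists, had -0.17 ± 0.17 (SD, n = 6), and 0.30 with sighted RNA in Cy5 alone.

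Lists of neurons, glia and other tissue in the sample also held no call. Medians were -0.0005 for the glutamate synapse, -0.065 for the GABA synapse and interneurons, -0.0231 for presynaptic vesicles and -0.00102 for myelin and oligodendrocytes. They were -0.0308 for microglia and immune genes, 0.0189 for choroid plexus and ependyma, -0.0243 for meninges and vessels, 0.0593 for blood and -0.0209 for oxidative phosphorylation. Outside the hormone list, 27 lists had a tested member, 0 members passed, and medians lay between -0.0885 and 0.0881. Of 309 distinct tested members of these lists, 16 (5.18%) had an unadjusted limma p under 0.05 in either direction, beside 1.96% higher and 2.12% lower over all features.

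**Figure D5:**
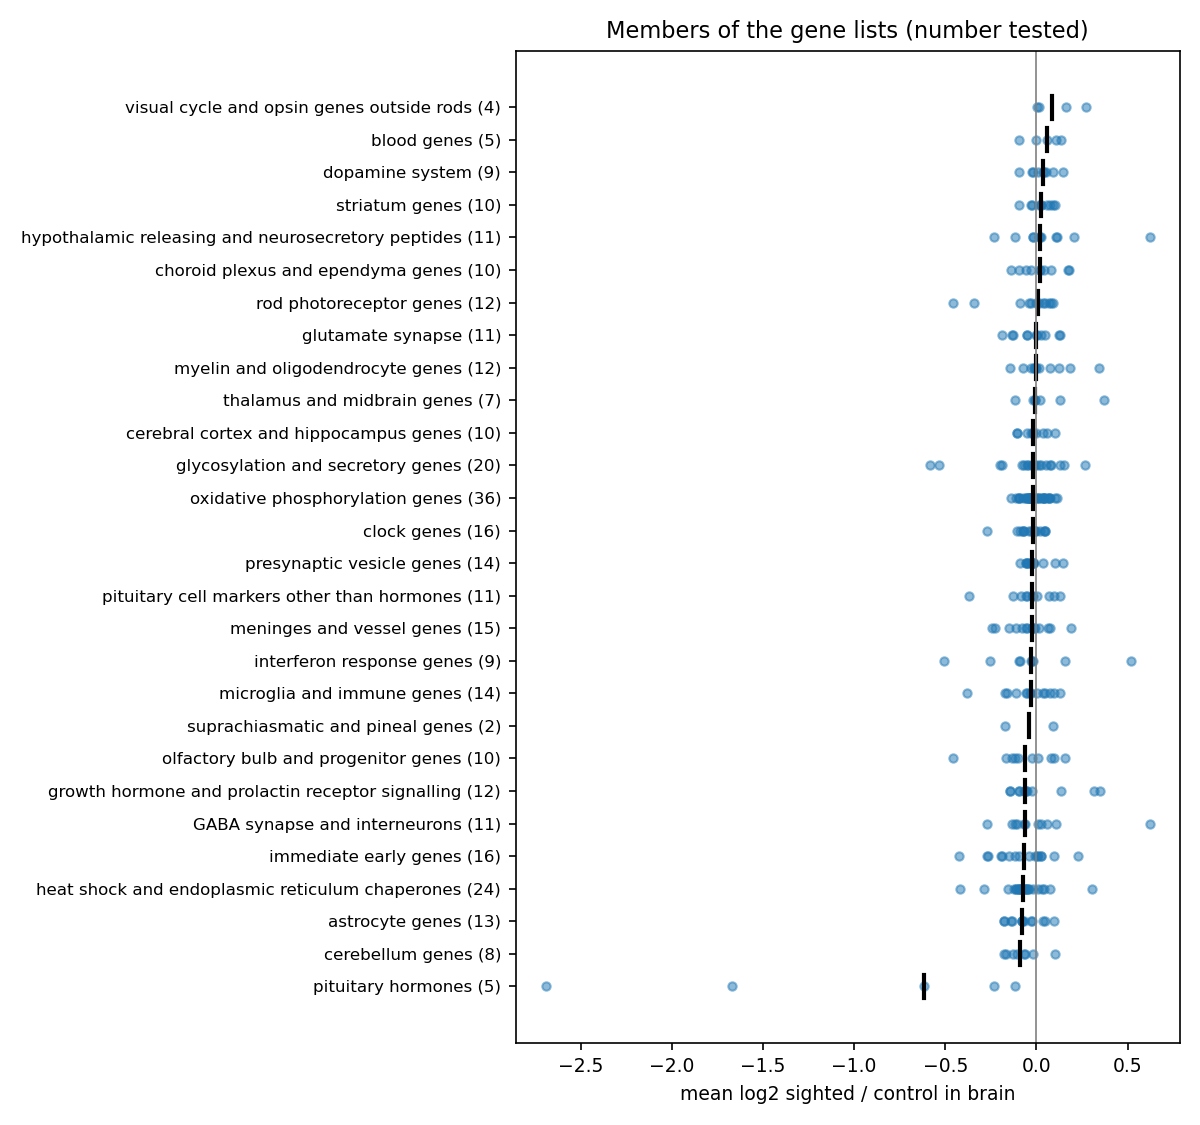
Mean log2 ratios of sighted over control RNA in brain for the tested members of 28 gene lists (points; number tested in brackets), with a bar at each list's median. The hormone list, with a median of -0.618, stands to the left, and all other medians lie between -0.0885 and 0.0881.

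Genes next to Pde6b were looked at because the mice are expected to differ at that locus. No probe carried the name Pde6b. Of the 15 nearest measured genes on each side, which span 6.48 megabases in the order of GRCm38.p6, 0 passed. Atp5k, the next gene after Pde6b, had 0.025 ± 0.13 (SD, n = 6). At an unadjusted limma p under 0.05 stood Tgfbr3, a coreceptor gene for transforming growth factor beta, at -0.18 ± 0.13, Brdt at -0.17 ± 0.16, Ankle2 at -0.15 ± 0.13 and Pole, a DNA polymerase gene, at 0.19 ± 0.17 (SD, n = 6 each). Pole had -0.064 with sighted RNA in Cy5 and 0.45 in Cy3. These are 1 higher and 3 lower of 30 genes, beside 1.96% higher and 2.12% lower over all features. The nearest of them to Pde6b is Brdt, and none of the genes next to Pde6b is among them.

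Some genes varied strongly between replicates and did so on both arrays of a pair. Over 8110 named genes with 12 values, the median Pearson's r between the odd and the even arrays of the 6 pairs was 0.0242, so that most genes showed no shared variation between pairs. Negr1, an adhesion gene of neurons, had the largest covariance, with r = 0.971. Its replicate values were 0.29, 0.91, -0.058, 0.57, -0.66 and -3.57, and both arrays of replicate 6 were far below the rest. Mpp2, a synaptic scaffold gene, had 4.68 and 2.69 on the arrays of replicate 5 and stayed between -0.54 and 0.47 on the others, with r = 0.971. F2, the prothrombin gene, had -1.64 and -2.38 in replicate 5, with r = 0.985. Ppp1r3b, a glycogen-targeting subunit gene, had -2.72 in replicate 5 and Uroc1, of histidine breakdown, -2.58 there. Cdhr1, a photoreceptor cadherin gene, had -2.90 in replicate 6 and 1.14 in replicate 5, and Tgm1, a transglutaminase gene, had -1.96 and 2.31. Adcy10, the soluble adenylyl cyclase gene, had 1.81 in replicate 6 and -1.57 in replicate 5. Wdr48 had -1.78 in replicate 6 and 1.38 in replicate 4, and Bmpr1a, a receptor gene for bone morphogenetic proteins, had -2.54 in replicate 1 and 1.49 in replicate 5. In 9 of these 10 genes the value farthest from 0 lay in replicate 5 or 6, whose arrays 9 to 12 also missed most values. The part of that loss in these values was not tested. Prl had r = 0.757 and Pomc r = 0.772 between the arrays of a pair, against 0.134 for Gh and 0.123 for Npy.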

How the data were processed

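Sighted brain RNA was compared with pooled control brain RNA on 12 arrays with 2 colours. The values deposited by the authors are log2 ratios of Cy5 over Cy3, unit and direction read from the values, and how the arrays were scanned, background-corrected and normalized is not given in the sources used here. Medians of the brain arrays lay between 0.002 and 0.1, and scale and centring stay unknown. The sign was turned where sighted RNA was in Cy3, 1132 values above 15 were set missing, pairs were averaged per probe and then over the probes of a gene, and a gene could miss 1 of 6 replicates. The mean was tested against 0 with limma 3.58.1 in R 4.3.3, two-sided, with Benjamini-Hochberg adjustment. Differences between organs used limma with array weights by organ. Of 20794 probes, 12771 carried 1 symbol and 8023 none. The 29 gene lists (603 entries, 352 on the array) and the genes described were chosen with earlier results of these data known.

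Named were genes past the threshold, the 12 smallest p on each side with 1 sign in all 6 replicates, the hormone genes, the 10 largest pair covariances, genes near Pde6b with an unadjusted p under 0.05, and for each list the 2 members with the smallest p. The last were given only with an unadjusted p under 0.05, or for the clock, suprachiasmatic, visual cycle and dopamine lists, which is less than the rule asked, and a few list members were added after their values were seen. The number of arrays limits the precision. Scripts were tested on simulated data. Alternatives were single arrays, a dye term, the pair as a random block, centring, scaling, missing values, probes, robust moderation, single dyes, a spread filter, the dye of array 3 and left-out replicates.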

Additional observations from a re-analysis of the deposited data

Results flagged for a closer look

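In 9 of 59 named genes, 1 replicate lay apart from the others by Dixon's criterion, which chance alone passes in about 1 of 20 groups. Some of these genes were chosen for strong variation between replicates, so the count cannot be set against that rate. The replicate apart had a log2 ratio of 0.11 for 4833420G17Rik, -0.416 for Per1, -0.307 for Apoe and 1.06 for Rlbp1. Among the genes chosen for variation shared by both arrays of a pair, it had -3.57 for Negr1, 3.69 for Mpp2, -2.72 for Ppp1r3b, -2.01 for F2 and -2.58 for Uroc1.

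The ratio of sighted over control differed between brain and eye in limma, tested as a difference, for 6 of the genes set against eye. Over all features 17.6% were called. The genes were chosen with their brain values known, and the same values enter the difference, so the count is no separate support. Brain minus eye was -1.53 for Gh, -2.52 for Prl, -1.05 for Pomc, -0.642 for Srp54a, -1.26 for 4833420G17Rik and 1.33 for Npy. For Fam177a it was 0.288, which did not pass.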

How the results depend on the processing

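The number of brain calls, 1 as reported, was 3 with every array on its own, 4 with the pair as a random replicate block, 6 with a dye term, 6 with the dye term and the replicate block, 2 with scaled arrays, 2 when all 6 replicates were needed, and 3 without the 20% of features with most spread. It was 0 with values above 15 kept, where Gh had a limma adjusted p of 0.0537, and 0 with array 3 read as Cy3. Single dye orientations gave 736 (Cy5) and 1327 (Cy3) calls, where the dye effect does not cancel. Leaving out a replicate gave 0 to 1 calls; without replicate 3 the call was Prl. Prl and Srp54a joined Gh in each fit of single arrays, and 4833420G17Rik in those with a dye term or a block. Arrays of a pair had a fitted correlation of -0.23, and of 0.0156 with a dye term. Same-numbered replicates of brain and other organs had correlations of at most 0.0434 in size. Arrays of a pair also shared little variation, so these correlations cannot tell whether the numbers mark shared animals. A replicate block between organs changed the call of none of the genes set against eye. Brain minus eye gave 1947 to 2723 calls over its alternatives. Pomc minus its eye value lost its call in 2 of 8, with a limma adjusted p up to 0.0711.

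Of 59 named genes, 38 kept their sign in every alternative, Gh, Prl, Srp54a and Npy among them. With Cy5 only, signs turned for Ifi205 (0.0828), Mmaa (0.392), Slc18a2 (-0.0242), Igfals (-0.177), Sag (-0.018), Reep6 (0.15), S100b (0.0968), Pax6 (0.302), Adcy10 (0.187), Bmpr1a (-0.234), Wdr48 (0.199), Uroc1 (0.455) and Pole (-0.0635). With Cy3 only they turned for Tspan4 (-0.0217), Nr4a2 (0.0575) and Tgm1 (-0.0478). With scaled arrays they turned for Bmpr1a (-0.0222) and F2 (0.0124). With replicates 1 to 4 only, a choice made after seeing the data, they turned for Negr1 (0.428), Bmpr1a (-0.278), Ppp1r3b (0.0946), Wdr48 (0.48) and F2 (0.223). Leaving out 1 replicate turned signs too, with ranges of -0.197 to 0.00512 for Tshb, -0.685 to 0.211 for Negr1, -0.774 to 0.0343 for Cdhr1, -0.352 to 0.502 for Tgm1, -0.493 to 0.183 for Adcy10, -0.155 to 0.652 for Bmpr1a, -0.552 to 0.0876 for Ppp1r3b, -0.441 to 0.191 for Wdr48 and -0.223 to 0.344 for F2. The causes were not tested.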
